A study of Danio rerio with 6 samples.

Results

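The claudin and tight junction genes of the zebrafish fin fold were taken as all rows of the deposited count table whose gene name begins with cldn, tjp, ocln or marveld in small letters, which gave 42 of 32266 genes. Of these, 35 had at least 15 counts summed over the 6 libraries and are the members described here. They comprise 22 claudins, 2 claudin domain containing genes (cldnd1a and cldnd1b), 6 genes of the MARVEL group (oclna, oclnb, marveld1, marveld2a, marveld2b and marveld3) and 5 genes for zonula occludens (ZO) scaffolds, tjp1a, tjp1b and tjp3 among them. Just inside that minimum were cldn2 with 17 counts and cldn11a with 22, and just outside it were cldnj and cldn10b with 12 each. The fin folds, thin folds of skin around the larval tail, came from zebrafish at 3 days of age. They were either left uncut (3 libraries) or collected 4 h after amputation (3 libraries). The sample descriptions of both groups name DMSO, a solvent, and no strain, allele or drug is named. The labels do not say whether the replicates came from separate clutches or pools of larvae. The p-values thus set a difference between groups against the spread between these libraries, which may be technical.

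Tight junctions seal the space between neighbouring epithelial cells near their apical side. Claudins are small membrane proteins that span the membrane several times and form the strands of the junction, and the claudins that a cell makes set which ions pass between cells. Occludin and tricellulin belong to the MARVEL proteins and sit in the same strands, with tricellulin gathered where the corners of neighbouring cells meet. ZO scaffolds hold claudins and occludin from the inside and tie them to actin. In larval zebrafish skin the superficial cell layer carries the tight junctions that keep ions and water from leaking.

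Total counts per library ran from 11216130 to 23019556, and levels are given as CPM, the count per 1e6 counts after scaling with edgeR's TMM factors, on which 1 count was worth 0.0436 to 0.0972 CPM. On a principal component that held 13.7% of the variance, uncut replicate 1 lay at 35.6 and the other 5 libraries between −23.2 and 8.01. That library also had the highest level of the 3 uncut libraries in 19 of 30 tested members. The labelled tissue carried its markers: and1, which encodes a protein of the fin fold's collagen-rich fibres, stood at 27714 ± 445 CPM (SD, n = 3) in uncut folds. The summed level of 5 gut and liver markers was 2.31 to 4.41 CPM in all 6 libraries, with apoa4b.1 at 0 counts throughout. Over all tested genes, 20.8% were higher after amputation and 19.6% lower in edgeR's quasi-likelihood test at a Benjamini-Hochberg adjusted p under 0.05, so 40.4% of genes passed. The median log2 fold change of all tested genes was 0.00 with TMM and 0.26 with library totals as the only scaling. A change is thus read against most other genes, and for the members described the value with library totals is given where it changes the call.

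Of the 35 members, 30 passed the filter on low counts and were tested. After amputation 13 of them fell (43.3%, against 19.6% of all tested genes) and 2 rose (6.67%, against 20.8%), while 15 did not pass the test. In all 15 of the 30 tested members passed, against 40.4% of all tested genes. Members that fell included cldn1, cldn19, oclnb and tjp3, and cldn5a was among those that rose. The median log2 fold change, amputated over uncut, was −0.22 for the tested members and 0.00 for all tested genes. No member changed by 1 or more on the log2 scale, a size that 7.69% of all tested genes reached with a call. The members' median absolute change was 0.30, beside 0.33 for all tested genes. The CPM of the groups did not overlap in 16 members that were lower after amputation and in 4 that were higher, against 24.1% and 26.9% of all tested genes, or 51.1% in either direction. With library totals alone 4 members fell and 7 rose, where 9.15% of all tested genes fell and 38.1% rose, and the members' median moved to 0.04. The 4 that fell under both scalings were cldn1, cldn19, oclnb and tjp3, and cldn5a rose under both. In bulk tissue, fewer cells of a type and less RNA per cell cannot be told apart.

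**Figure D1:**
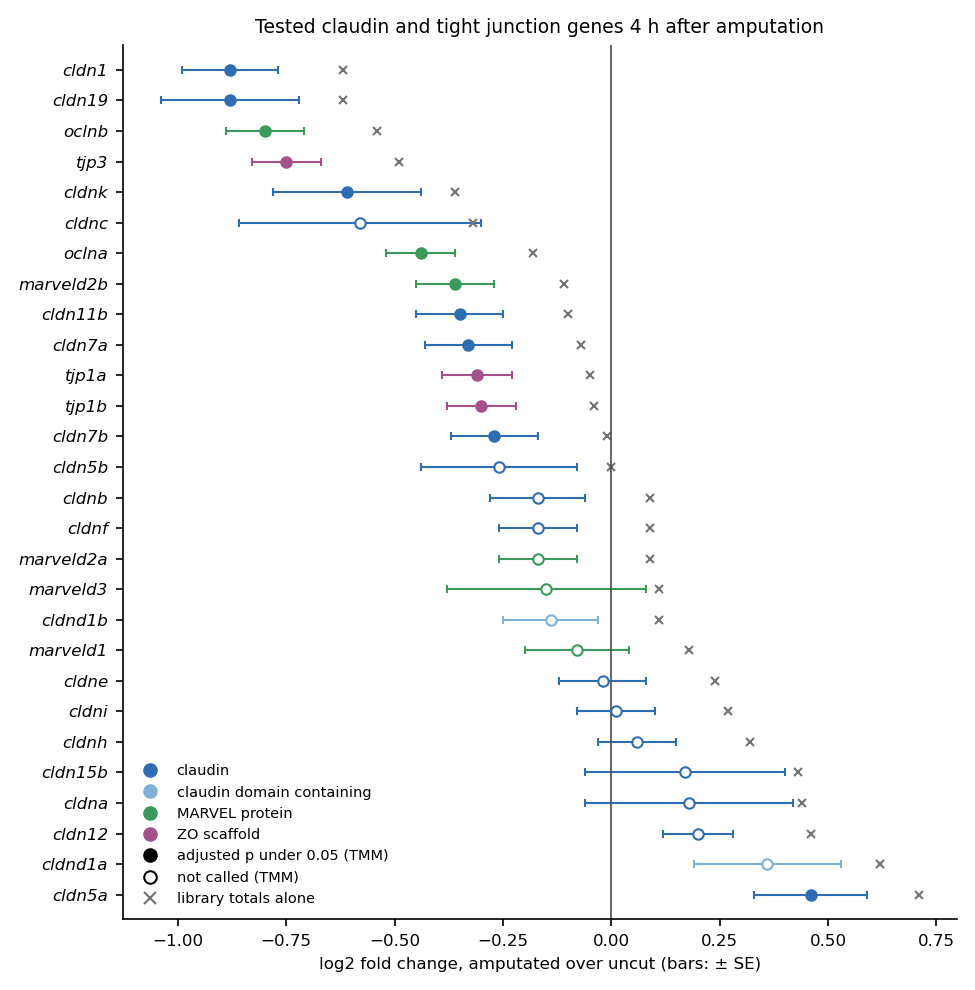
Log2 fold change, amputated over uncut, of tested members (x axis) with its standard error, 1 gene per line, coloured by class; filled circles passed edgeR's test at an adjusted p under 0.05 with TMM scaling, and crosses give the value with library totals alone. The crosses lie about 0.26 to the right of the circles, so cldn1, cldn19, oclnb and tjp3 stay well below 0 while genes such as cldn7b and tjp1b come close to 0.

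Among the claudins, cldn1 fell furthest together with cldn19. Claudin-1 is needed for the skin's water barrier in mice. The uncut libraries, listed here and throughout in the order of their replicate numbers, had 466, 357 and 373 CPM of cldn1. The amputated libraries, in the same order, had 236, 207 and 209 CPM. Every amputated library lay well below every uncut library, with the highest value in uncut replicate 1. The log2 fold change was −0.88 ± 0.11 (SE), with an edgeR adjusted p of 5.3e-05, and ranged from −0.96 to −0.74 when each library was left out in turn. With library totals alone it was −0.62.

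In mammals claudin-19 is known from kidney tubules and from Schwann cells. Here cldn19 had 10.7, 8.42 and 10.8 CPM in uncut folds and 5.05, 4.86 and 6.19 CPM after amputation. The groups were clearly apart. The log2 fold change was −0.88 ± 0.16 (SE), with an edgeR adjusted p of 9.7e-04, and it was −0.62 with library totals alone (edgeR adjusted p = 0.00658). The gene cldnk, which marks myelinating glia in zebrafish, had 33.7, 20.3 and 25.8 CPM in the uncut libraries and 19.9, 14.4 and 17.6 CPM after amputation. Its uncut libraries were widely spread and the lowest of them was close to the highest amputated one. The change was −0.61 ± 0.17 (SE) with an edgeR adjusted p of 0.0132, but the call was lost without amputated replicate 2 (edgeR adjusted p = 0.0681) and with library totals alone (0.0918). Of 7 markers of myelinating glia 4 could be tested, of which 1 (mbpb) fell and 1 rose. That is 25.0% each, against 19.6% and 20.8% of all tested genes. The log2 fold changes of these 4 ran from −0.25 to 0.90. With library totals alone 1 of them rose and none fell. The summed level of the 7 markers was 192 to 207 CPM in uncut folds and 172 to 177 CPM after amputation. Nearly all of that sum came from mbpb and erbb3b, while the defining myelin genes mbpa and mpz had 28 and 22 counts over all 6 libraries. The part of these cells in the changes was not tested.

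Smaller falls were seen in 3 other claudins, and all 3 calls depended on single libraries and on the scaling. The claudin-7 genes cldn7a and cldn7b encode epithelial claudins, and claudin-7 binds EpCAM in mammals. The CPM of cldn7b was 227, 184 and 191 in uncut folds and 178, 167 and 153 after amputation, a change of −0.27 ± 0.10 (SE) with an edgeR adjusted p of 0.0413. For cldn7a it was 38.0, 31.8 and 30.5 in uncut folds and 25.7, 27.9 and 26.2 after amputation, at −0.33 ± 0.10 (SE). In each of these genes the groups did not overlap, but the lowest uncut library lay close to the highest amputated one. The third was cldn11b, whose mammalian counterpart builds junctions in myelin and testis, at −0.35 ± 0.10 (SE). With library totals alone the changes were −0.07 for cldn7a, −0.01 for cldn7b and −0.10 for cldn11b, and none of the 3 passed. Leaving out uncut replicate 1 ended the calls of cldn7b and cldn7a (edgeR adjusted p = 0.118 and 0.0629), and leaving out amputated replicate 3 ended both too (0.158 and 0.0628). The cldn7b call was also lost without amputated replicate 2 (edgeR adjusted p = 0.101), as was that of cldn11b (0.0691). The cldn7a call was also lost without amputated replicate 1 (edgeR adjusted p = 0.0772).

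The claudin that rose was cldn5a. Its mammalian counterpart seals the endothelium of brain vessels. Uncut folds had 18.7, 25.2 and 26.8 CPM, and amputated folds had 29.2, 33.8 and 33.9 CPM. The lowest value was in uncut replicate 1, and the groups did not overlap. The log2 fold change was 0.46 ± 0.13 (SE) with an edgeR adjusted p of 0.0127. Without amputated replicate 2 the adjusted p was 0.0529. The duplicate cldn5b was at 15.1, 11.1 and 9.53 CPM in uncut folds. After amputation replicates 2 and 3 had 9.47 and 8.59 CPM, while replicate 1 lay between uncut replicates 2 and 1. The groups overlapped, and the change was −0.26 ± 0.18 (SE), which did not pass the test. Of 10 markers of vascular endothelium, none rose, where 20.8% of all tested genes rose. The 2 that fell (egfl7 and fli1a) are a share of 20.0%, against 19.6% of all tested genes. With library totals alone 1 of the 10 rose and 1 fell, and fli1a did not pass. The summed level of the 10 markers was 130 to 134 CPM in uncut folds and 104 to 122 CPM after amputation. Their log2 fold changes ran from −1.46 to 0.19, with cdh5 at 0.17 ± 0.16 (SE), near the top of that range. No other endothelial marker was set against cldn5a as a ratio. The count ratio of cldn5a to the endothelial cadherin gene cdh5 was 1.99, 2.16 and 2.73 in uncut libraries and 2.44, 2.43 and 3.69 in amputated ones, with groups that overlapped (two-sided exact permutation p = 0.400, n = 3 per group, unpaired). Within same-numbered libraries the ratio was higher after amputation in 3 of 3 pairs, a direction that was not tested.

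The claudin genes cldni, cldne and cldnb, all with many reads, did not pass the test. For cldni, which had the most reads of the members, the level was 1274, 1116 and 1109 CPM in uncut folds and 1252, 1156 and 1118 CPM in amputated folds. The groups lay on top of each other, at 0.01 ± 0.09 (SE, edgeR adjusted p = 0.937). The epidermal claudin gene cldne had 364, 294 and 291 CPM in uncut folds and 331, 308 and 295 CPM after amputation, at −0.02 ± 0.10 (SE). For cldnb, which marks the lateral line and skin of zebrafish, the values were 271, 235 and 197 CPM and then 208, 197 and 221 CPM, at −0.17 ± 0.11 (SE). In each of these 3 genes the spread among uncut libraries was as wide as the gap between the group means or wider. With library totals alone cldni and cldne passed as higher, at 0.27 and 0.24, which is about the shift of all genes under that scaling. The gene cldnb passed as lower without uncut replicate 3, at −0.28 (edgeR adjusted p = 0.0448).

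On the TMM scale none of cldnf, cldnh, cldna and cldnc passed the test. For cldnf the level was 45.4, 41.7 and 39.9 CPM and then 37.5, 36.2 and 39.2 CPM, without overlap, at −0.17 ± 0.09 (SE). For cldnh it was 28.3, 28.1 and 26.7 CPM and then 28.4, 30.5 and 28.1 CPM, with overlap, at 0.06 ± 0.09 (SE), but with library totals alone cldnh passed as higher, at 0.32 (edgeR adjusted p = 0.0135). The changes of cldna and cldnc were 0.18 ± 0.24 and −0.58 ± 0.28 (SE). The gene cldnc had 1.71, 1.58 and 2.04 CPM in uncut folds and 0.842, 1.35 and 1.31 CPM after amputation. Its groups did not overlap, but it had 156 counts in all. The level of cldna was 8.76 CPM in uncut replicate 1 and 4.42 and 4.67 CPM in the other uncut libraries, beside 6.68, 5.91 and 7.54 CPM after amputation. It passed as higher only when uncut replicate 1 was left out (0.58, edgeR adjusted p = 0.0193), among the fits with a library left out. The gene cldn12, a claudin without the usual binding site for ZO scaffolds in mammals, was at 0.20 ± 0.08 (SE) and missed the threshold with an edgeR adjusted p of 0.0577, with 0.0490 without uncut replicate 1. The gene passed as higher with library totals alone, at 0.46 (edgeR adjusted p = 7.5e-04). The authors' deposited table called cldn12 as well, as the 1 member called there and not here. Its span overlaps 6 other genes, among them si:dkey-7j14.6 by 127 bases, which had 10665 counts. The remaining tested claudin cldn15b, a relative of a gut claudin, and the pair cldnd1a and cldnd1b were between −0.14 and 0.36, and none of the 3 passed. Of these cldnd1a passed as higher with library totals alone, at 0.62 (edgeR adjusted p = 0.00999). Reads of cldn2, cldn11a, cldnd, cldn10l2 and cldn17, with 17 to 37 counts each over 6 libraries, were too few to test.

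Since cldni barely differed between groups, counts of other members were set over those of cldni within each library, a choice made after their values were seen. Such ratios do not depend on how libraries are scaled. There were 0.366, 0.320 and 0.336 counts of cldn1 per count of cldni in uncut folds, and 0.188, 0.179 and 0.187 after amputation. The ratio of oclnb to cldni was 0.153 ± 0.00525 (SD, n = 3) in uncut folds and 0.0874 ± 0.00325 (SD, n = 3) after amputation, and that of tjp3 to cldni was 0.162 ± 0.00396 and 0.0958 ± 0.00825. None of these ratios overlapped between groups. Since cldni was picked as level on the TMM scale and the others as changed, the ratios describe the same changes again and were not tested. Of all reads on members, cldni took 31.4% to 31.5% in uncut folds and 36.0% to 37.5% after amputation, while cldn1 took 10.1% to 11.5% and then 6.57% to 7.07%. These are shares of reads, not of transcripts, since counts were not divided by gene length. The members together held 0.339% ± 0.0197 (SD, n = 3) of all counts in uncut folds and 0.349% ± 0.0105 (SD, n = 3) after amputation, which overlap. On the TMM scale their summed level was 3710 ± 295 CPM (SD, n = 3) and 3195 ± 122 CPM (SD, n = 3), with no overlap.

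**Figure D2:**
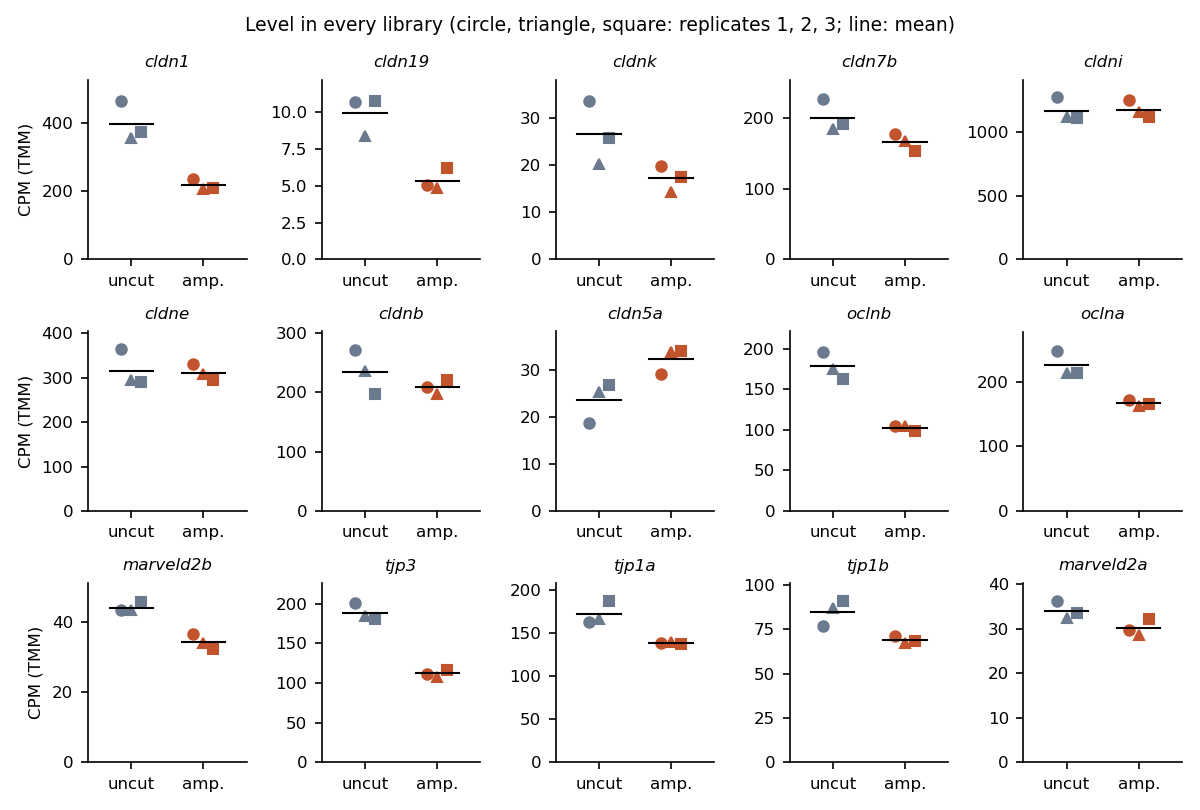
Level in CPM after TMM scaling (y axis, from 0) of 15 members in each uncut and amputated library, with a symbol for each replicate number and a line at the group mean. The 3 amputated libraries lie below all uncut libraries for cldn1 (207 to 236 against 357 to 466 CPM), oclnb and tjp3, above them for cldn5a, and among them for cldni and cldne.

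Occludin genes fell, and oclnb fell more than oclna. Occludin was the first membrane protein found in tight junction strands. The level of oclnb was 196, 175 and 163 CPM in uncut folds and 105, 105 and 98.0 CPM in amputated folds. The amputated libraries agreed closely and lay far below the uncut ones. Its log2 fold change was −0.80 ± 0.09 (SE), with an edgeR adjusted p of 2.3e-05, and it was −0.54 with library totals alone. For oclna the level was 248, 214 and 213 CPM in uncut folds and 172, 162 and 165 CPM after amputation, again with no overlap. The change of oclna was −0.44 ± 0.08 (SE, edgeR adjusted p = 0.00125), but −0.18 with library totals alone, which did not pass (edgeR adjusted p = 0.0706).

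The tricellulin gene marveld2b fell on the TMM scale, from 43.4, 43.4 and 45.9 CPM to 36.7, 34.1 and 32.3 CPM. That is −0.36 ± 0.09 (SE, edgeR adjusted p = 0.00472), and −0.11 with library totals alone, which did not pass. Its duplicate marveld2a had 36.2, 32.3 and 33.5 CPM in uncut folds and 29.6, 28.6 and 32.2 CPM after amputation. These groups just failed to overlap, and the change of −0.17 ± 0.09 (SE) did not pass the test. The MARVEL genes marveld1 and marveld3 were at −0.08 ± 0.12 and −0.15 ± 0.23 (SE), and neither passed. Levels of marveld1 were 20.3, 26.9 and 22.8 CPM and then 20.3, 23.6 and 22.5 CPM. Those of marveld3 were 4.48, 3.02 and 3.89 CPM and then 2.57, 4.13 and 3.45 CPM. In both genes the groups overlapped. Another row that the gene name table calls MARVELD3, listed as CABZ01072765.1, is not a member by its name. It had 846 counts, against 390 for marveld3. Its change was −0.32 ± 0.14 (SE, edgeR adjusted p = 0.0890), which did not pass, though its groups did not overlap. With library totals alone this row was at −0.06.

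Of the 5 ZO genes 4 fell and 1 rose, or 80.0% and 20.0%, against 19.6% and 20.8% of all tested genes. With library totals alone 1 of the 5 fell and 1 rose, where 9.15% of all tested genes fell and 38.1% rose. Among those that fell on the TMM scale were tjp1a, tjp1b and tjp3. The ZO-3 gene tjp3 fell furthest of these 3, with 201, 184 and 181 CPM in uncut folds and 112, 108 and 117 CPM in amputated folds. The gap between the groups was many times the spread within them. The log2 fold change was −0.75 ± 0.08 (SE) with an edgeR adjusted p of 1.8e-05, and −0.49 with library totals alone (edgeR adjusted p = 2.2e-04).

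ZO-1 links the junction to actin and is the most studied member of its family. The ZO-1 genes tjp1a and tjp1b fell by similar amounts on the TMM scale, at −0.31 ± 0.08 and −0.30 ± 0.08 (SE). For tjp1a the level was 163, 167 and 187 CPM in uncut folds and 139, 140 and 138 CPM after amputation. For tjp1b it was 76.8, 87.0 and 90.8 CPM and then 71.1, 67.6 and 68.3 CPM. The amputated libraries of both genes were tightly grouped below the uncut ones. The values were −0.05 and −0.04 with library totals alone, and neither passed. The call of tjp1b was also lost without amputated replicate 2 (edgeR adjusted p = 0.0552).

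Duplicate genes of 6 a and b pairs were compared by the ratio of their raw counts within each library, which no scaling can change. There were 1.26, 1.22 and 1.31 counts of oclna per count of oclnb in uncut folds and 1.63, 1.55 and 1.68 after amputation, a log2 difference of 0.36 ± 0.05 (SE). For cldnd1a over cldnd1b the log2 difference was 0.51 ± 0.11 (SE). In both pairs the groups did not overlap, and the two-sided exact permutation p was 0.100 in each, the smallest that 3 against 3 allows (0.30 after adjustment over the 6 pairs). The log2 ratio of tjp1a to tjp1b differed by −0.01 ± 0.05 (SE), and that of cldn7a to cldn7b by −0.06 ± 0.08, both within the spread of the libraries. The difference was 0.19 ± 0.11 (SE) for marveld2a over marveld2b and 0.71 ± 0.41 for cldn5a over cldn5b, with overlapping groups. Within same-numbered libraries the cldn5a over cldn5b ratio was higher after amputation in 3 of 3 pairs. The ratios of the marveld2, tjp1 and cldn7 duplicates went in both directions within such pairs. The labels name no shared animal or day for these pairs, and the direction was not tested. For cldn5a over cldn5b the log2 ratio of uncut replicate 1 was far from the rest, at 0.31 against 1.18 and 1.49 in the other uncut libraries.

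**Figure D3:**
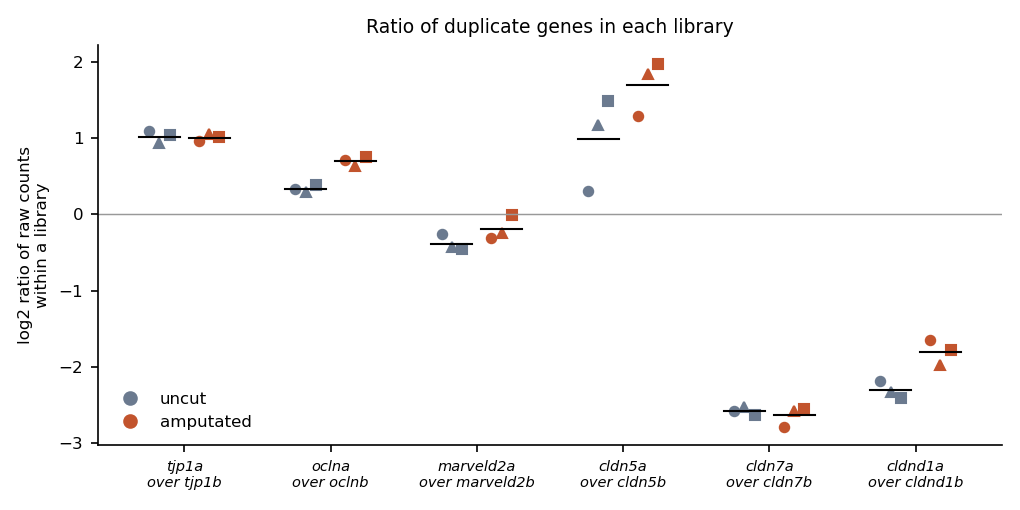
Log2 ratio of the raw counts of a and b duplicates within each library (y axis) for 6 pairs, uncut in grey and amputated in orange, with a line at the group mean. The ratio moved up without overlap for ocln (mean 0.34 to 0.70) and cldnd1 (−2.31 to −1.80), and stayed in place for tjp1 and cldn7.

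Many members lie in tandem in the deposited coordinates (no source used here names their genome build). The longest array held 8 claudin rows over 56.7 kb of chromosome 21 (25702690 to 25759363), of which cldnh, cldnc, cldnb and cldnd are members. None of its 3 tested members passed the test. An array on chromosome 15 (2667849 to 2693936) held cldnj, cldne, cldnf and cldna within 26.1 kb, and none of its 3 tested members passed either. The members that fell most, cldn1 and cldn19, lie on chromosomes 2 and 11 with no other such gene within 30 kb. The gene oclnb lies next to marveld2b on chromosome 5 with a gap of 775 bases, and oclna next to marveld2a on chromosome 10 with a gap of 4142 bases. In both places the occludin gene had the more negative log2 fold change, −0.80 beside −0.36 and −0.44 beside −0.17. Reads of near-identical neighbours in an array, and of genes that overlap, may have been split or shared in a way that is not known. The span of cldn17 overlaps zgc:110333, another claudin row with 10109 counts, and that of cldne lies over SH2B2, which had 317 counts.

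Other tight junction genes were taken from a list of 77 genes in 5 roles, of which 69 were tested. Of these 27 fell and 4 rose, or 39.1% and 5.80%, against 19.6% and 20.8% of all tested genes. Their median log2 fold change was −0.17. With library totals alone 14 of the 69 fell and 14 rose, where 9.15% of all tested genes fell and 38.1% rose. The median was then 0.09, beside 0.26 for all tested genes. Of 11 tested membrane proteins other than the members, 4 fell (36.4%) and none rose, against 19.6% and 20.8% of all tested genes. They were the angulin genes ildr1a (−0.29 ± 0.08, SE), ildr1b (−0.35 ± 0.12) and ildr2 (−0.44 ± 0.12), whose proteins bring tricellulin to cell corners in mammals, and the junctional adhesion gene jam2a (−0.68 ± 0.22). None of these 4 calls held with library totals alone. Each was also lost with a library left out: ildr1a without amputated replicate 1 (edgeR adjusted p = 0.0524), ildr2 without uncut replicate 2 (0.0568), jam2a in 3 of 6 such fits and ildr1b in 4 of 6 (up to 0.0966 and 0.126). The claudin-7 partner gene epcam was at −0.21 ± 0.10 (SE) and lsr, another angulin gene, at −0.03 ± 0.08, and neither passed on the TMM scale. With library totals alone lsr passed as higher, at 0.23 (edgeR adjusted p = 0.0296).

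Of 23 scaffolds and regulators, 6 fell and 3 rose, or 26.1% and 13.0%, against 19.6% and 20.8% of all tested genes. With library totals alone 3 of the 23 were lower and 8 higher, where 9.15% of all tested genes were lower and 38.1% higher. The WNK kinase genes wnk4b and wnk1b fell by 1.05 ± 0.16 and 0.82 ± 0.11 (SE), and the angiomotin-like gene amotl2a by 0.54 ± 0.09. WNK4 phosphorylates claudins in mammals. These 3 genes also fell with library totals alone, at −0.79, −0.57 and −0.29. Those that rose were magi2b (0.85 ± 0.26), amotl2b (0.27 ± 0.08) and sympk (0.78 ± 0.09), whose product symplekin is also part of the machinery that cuts and polyadenylates mRNA. The call of magi2b was lost in 3 of 6 fits with a library left out and that of amotl2b in 2 of 6 (edgeR adjusted p up to 0.107 and 0.0625). Of 14 polarity genes 3 fell, pard6a (−0.68 ± 0.08, SE), pard3bb (−0.63 ± 0.13) and pard3aa (−0.45 ± 0.15, listed in the table as si:ch73-378g22.1, and lost in 4 of 6 such fits), and none rose. That is 21.4% of the list lower, near the 19.6% of all tested genes, and none higher, where 20.8% of all tested genes rose. Scaled by library totals alone 2 fell and 3 rose, beside 9.15% and 38.1% of all tested genes. Under that scaling pard3aa did not pass (−0.20, edgeR adjusted p = 0.325). The atypical protein kinase C gene prkci, the kinase of the Par complex, was at 0.06 ± 0.07 (SE) and did not pass on the TMM scale. With library totals alone prkci passed as higher, at 0.31 (edgeR adjusted p = 0.00429).

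Of 15 transcription factor genes known to act on epithelial junction genes, 9 fell and 1 rose. That is 60.0% and 6.67%, against 19.6% and 20.8% of all tested genes. The zinc finger genes zeb1b, zeb2a and snai1a fell by 0.66 ± 0.09, 0.74 ± 0.10 and 0.55 ± 0.08 (SE), and so did snai1b (−1.47 ± 0.25), named after its value was seen. Their products are known as repressors of epithelial junction genes, claudins among them. The keratinocyte factor gene tp63 fell by 0.50 ± 0.08 (SE). Of the grainyhead-like genes, which activate claudin and cadherin genes in mammals, grhl1 and grhl2b fell (−0.27 ± 0.08 and −0.48 ± 0.12), grhl2a rose (0.38 ± 0.09) and grhl3 was at −0.14 ± 0.08 and did not pass. The values of zeb1b, zeb2a, snai1a, snai1b and tp63 were also lower with library totals alone and passed, while those of grhl1 and grhl2b did not pass. The call of grhl1 was also lost without uncut replicate 2 or amputated replicate 1 (edgeR adjusted p up to 0.0524). Among 6 tested membrane proteases and their inhibitors 5 fell (83.3%) and none rose, against 19.6% and 20.8% of all tested genes. The protease genes tmprss4a and st14b fell by 0.83 ± 0.11 and 0.54 ± 0.08 (SE), and the inhibitor genes spint2 and spint1b by 0.53 ± 0.08 and 0.38 ± 0.09. Scaled by library totals alone 3 of the 6 fell, where 9.15% of all tested genes fell. Under that scaling spint1b did not pass (−0.12, edgeR adjusted p = 0.237). Matriptase, the product of the st14 genes, cuts EpCAM in mammals and thereby frees claudin-7. Its gene st14a was at −0.22 ± 0.09 and did not pass.

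Adherens junction genes hold the same cells together below the tight junction. Of 21 tested, 7 fell and 2 rose, or 33.3% and 9.52%, against 19.6% and 20.8% of all tested genes. Their median was −0.16, near the −0.17 of the other tight junction genes listed above. The summed level, to which genes with many reads add most, went the other way. It was 2952 to 3085 CPM in uncut folds and 3258 to 3389 CPM after amputation, without overlap. With library totals alone 3 fell and 7 rose, where 9.15% of all tested genes fell and 38.1% rose. Their median was then 0.09, beside 0.26 for all tested genes. The alpha-catenin gene ctnna1 rose from 265 ± 6.82 to 380 ± 9.81 CPM (SD, n = 3), by 0.52 ± 0.07 (SE, edgeR adjusted p = 1.6e-04), and the beta-catenin gene ctnnb2 rose by 0.37 ± 0.09. Falls included the vinculin gene vcla (−0.65 ± 0.09), plekha7b (−0.84 ± 0.14) and ctnnd2a (−1.24 ± 0.19). The E-cadherin gene cdh1 was at 0.17 ± 0.09 (SE) and did not pass, but passed as higher with library totals alone, at 0.43.

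**Figure D4:**
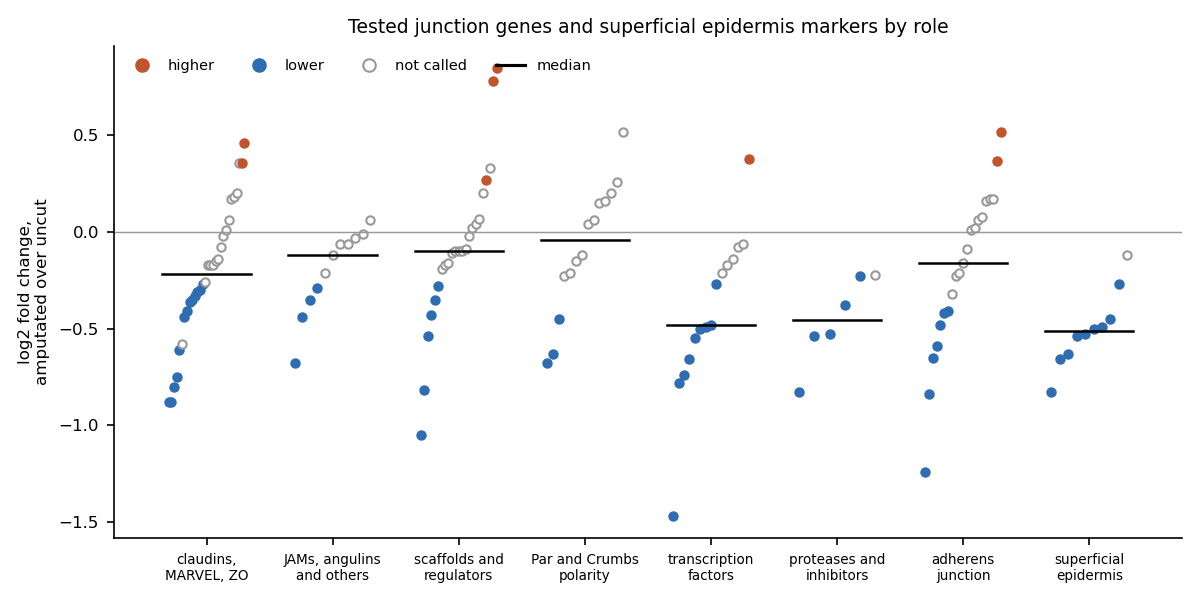
Log2 fold change, amputated over uncut, with TMM scaling (y axis) of the tested members, of 5 groups of other tight junction genes, of adherens junction genes and of superficial epidermis markers; each circle is a gene, filled where it passed edgeR's test, and bars are medians. The medians lie at −0.22 for the members, −0.48 for the transcription factors and −0.52 for superficial epidermis markers, and at −0.04 for polarity genes, and with library totals alone they are 0.04, −0.22, −0.26 and 0.22.

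Markers of the epidermal layers and of other cell types were set beside the members. Of 10 markers of the superficial epidermis 9 fell and none rose, where 19.6% of all tested genes fell and 20.8% rose. With library totals alone 4 fell and none rose, against 9.15% and 38.1% of all tested genes. Their summed level was 55055 to 73452 CPM in uncut folds and 40204 to 49748 CPM after amputation. None of these superficial markers was at 0. Of 8 markers of the basal epidermis 3 fell and 1 rose (2 and 3 with library totals alone), with summed levels of 5121 to 6465 CPM and 5210 to 6293 CPM that overlap. The count ratio of cldn1 to tp63, a basal keratinocyte gene that also fell, was 2.50, 2.04 and 1.87 in uncut folds and 1.82, 1.48 and 1.65 after amputation. These ratios did not overlap, and as cldn1 was picked for its fall they are given as a description. All 6 leukocyte markers rose, with summed levels of 13.0 to 20.6 CPM and 72.6 to 108 CPM. The 7 fin mesenchyme markers all fell, with summed levels of 148550 to 160870 CPM in uncut folds and 67127 to 76807 CPM after amputation. All 3 tested mucous cell markers rose (51.4 to 62.4 CPM summed over the list, then 90.6 to 110 CPM), and 4 of 5 skeletal muscle markers fell, 1 of them also with library totals alone (306 to 378 CPM, then 240 to 281 CPM). The part of these shifts in the members' values was not tested.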

How the data were processed

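RNA-seq counts of 6 larval fin fold libraries were used, 3 uncut and 3 at 4 h after amputation. The authors deposited whole-number counts per Ensembl gene, with a normalized signal that is the count over a size factor (largest relative deviation 5.5e-10). Their log2 fold change (uncut over amputated, turned round here), Wald score and p-value stand beside them, per the file headers. The submitters' processing notes list TopHat, Cufflinks and DESeq2, with no version. No source used here gives the counter, genome build or annotation. Per the labels' protocols, RNA was extracted with Trizol and libraries made with a TruSeq v2 kit, which does not mark strand.

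The whole table was fitted with edgeR 4.0.16 in R 4.3.3: filterByExpr (minimum count 10, minimum total 15; 17883 of 32266 genes kept), TMM, glmQLFit and glmQLFTest with no covariate, and Benjamini-Hochberg adjustment over all genes tested. The same function was tested on simulated counts. A gene was called at an adjusted p under 0.05. Standard errors were obtained by dividing the size of each log2 fold change by the root of its F statistic. Levels are TMM-scaled CPM. Counts carry no molecular identifiers, and no lengths were used, so levels are not compared between genes.

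Members and lists were chosen with earlier results of these data known. Of 195 list entries written by symbol, 183 were found, 12 of them under another name. Per-library values are given for the 8 largest rises and falls among called members, for tjp, ocln and marveld genes (apart from genes not named here) and for a fixed set of claudins, and up to 4 called genes are named per list. Genes named outside this rule were chosen after their values were seen: cldn11b, cldn12, cldn15b, cldnd1a, cldnd1b, snai1b, magi2b, amotl2b, grhl1, grhl2a, grhl2b, grhl3, ctnnb2, cdh1, cdh5, epcam, lsr, prkci, st14a, egfl7, fli1a, mbpa, mbpb, erbb3b and mpz. Some genes are counted in the totals and are not reported here by name. Same-numbered libraries deviated together from their group means (correlations over genes of 0.222, 0.199 and 0.153, against −0.143 to −0.0399 for other pairs). Deviations from a group mean cancel out within the group, so the negative values follow in part from the positive ones. The numbers were taken to pair the samples only in the fit with the replicate number as a block and where same-numbered libraries are compared. The calls reported and the exact tests are unpaired. The labels hold the numbers but no shared animal or day, so that pairing rests on the values. Alternatives were DESeq2 1.42.0, its size factors in edgeR, the authors' calls, no filter, library totals alone, an adjusted p under 0.01, a member minimum of 100 counts, the replicate number as a block and each library left out.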

Additional observations from a re-analysis of the deposited data

How the results depend on the processing

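With DESeq2's size factors, DESeq2's own test, no filter on low counts or a member minimum of 100 counts, 2 members rose and 13 fell, as in the fit reported. The replicate number as a block gave 2 and 13 as well and changed no member's call, so the pairing bears on no count of members. The authors' deposited calls gave 3 and 13. Scaling by library totals alone moved most counts: 7 members rose and 4 fell, 14 partner genes rose and 14 fell, 7 adherens junction genes rose and 3 fell, and 6821 of all genes rose and 1636 fell. By construction it leaves in the shift of 0.26 that TMM removes. Under it cldne went from −0.02 to 0.24 and passed as higher. At an adjusted p under 0.01, 1 member rose and 8 fell, 2 partner genes rose, and 2283 of all genes fell. Adding tight junction genes under other names, a choice made after seeing the data, gave 4 members higher and 16 lower. Leaving out each library in turn gave 1 to 4 members higher and 9 to 14 lower, and 2 to 5 partner genes higher and 21 to 27 lower. The counts of members higher were 4 without uncut replicate 1 and 1 without amputated replicate 2, and partner genes higher were 2 without amputated replicate 1. The members called in every one of these 6 fits numbered 9 and included cldn1, cldn19, marveld2b, oclna, oclnb, tjp1a and tjp3. With 3 libraries per group no exact test of a single ratio can go below 0.100, and 5 members had too few counts to test.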

Other observations

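The table also holds 18 rows that are claudin or MARVEL genes under other names, in capitals or under clone names that the gene name table resolves, of which 13 had at least 15 counts and 11 were tested. They were looked up after the data were seen. Of these 11, 3 fell and 2 rose, or 27.3% and 18.2%, against 19.6% and 20.8% of all tested genes. The gene cldn23.1, listed as si:ch211-95j8.2, went from a mean of 131 to 88.0 CPM (n = 3), at −0.57 ± 0.09 (SE, edgeR adjusted p = 2.8e-04), and was also lower with library totals alone, at −0.31. The gene cldn8.2, listed as zgc:110333, went from 108 to 77.9 CPM, at −0.47 ± 0.09 (SE, edgeR adjusted p = 0.00127), but did not pass with library totals alone. A claudin of the chromosome 21 array, cldn29, was at −0.49 ± 0.15 (SE, edgeR adjusted p = 0.0182), and was the only row of that array to pass. It did not pass with library totals alone (−0.24, edgeR adjusted p = 0.199) or in 3 of 6 fits with a library left out (up to 0.0821).

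The 2 rows that rose had few reads. The tricellulin relative marveld2l, listed as si:dkey-208k22.6, went from 0.980 to 1.97 CPM, at 0.96 ± 0.27 (SE, edgeR adjusted p = 0.0136), with 174 counts in all. A claudin-20 row on chromosome 17 (49153093 to 49153824) went from 0.371 to 1.21 CPM, at 1.63 ± 0.47 (SE, edgeR adjusted p = 0.0154), with 94 counts in all. Its call was kept in 3 of the 6 fits with a library left out.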
